A study of Mus musculus with 6 samples.

Results

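In RNA sequencing of 6 libraries from subcutaneous B16F10 tumours, 49 of the 9531 genes that reached 10 CPM (counts per 1000000 of a library) in at least 1 library were set apart by a division of the libraries that crosses the shRNA groups. Of these, 45 were at least 1.5-fold higher in shControl 1, shControl 5 and shSQLE 2 (called set A here) than in shControl 4, shSQLE 1 and shSQLE 5 (set B), and 4 were at least 1.5-fold lower. Each gene had to hold this ratio between the lowest library of the higher set and the highest library of the lower set. Of the 45, 2 met it only because ties at 0 pass, with counts in shSQLE 2 alone. The members are therefore 0.472% of the genes over the floor on the higher side and 0.042% on the lower side, 0.514% in all. The same measured values chose the genes, so the levels below are a description, and no test of set A against set B was made. The whole table holds 55349 genes.

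B16F10 is a mouse melanoma cell line. The 3 shControl libraries (numbered 1, 4 and 5, genotype labelled WT) and the 3 shSQLE libraries (numbered 1, 2 and 5, labelled as knockdown of SQLE) came from tumours under the skin, with the treatment given as none. SQLE is squalene epoxidase, an enzyme of sterol synthesis. Tumour RNA holds melanoma cells and host cells together. The host's strain, age and immune state, the hairpin used, whether a line was a clone, and whether each library is a separate tumour or animal are not stated in the labels. The p-values below therefore cover the spread among these 6 libraries, which may be technical. Where a tumour is named below, it means the material of a library.

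The members named here include genes of blood vessels, of collagen and other secreted proteins, of nuclear regulators of transcription, of the mitochondrial genome and of membrane traffic. Endothelial cells line vessels and hold together through VE-cadherin, mural cells wrap them, and both rest on a sheet of type IV collagen that they secrete. In an implanted melanoma these cells come from the host. Type IV collagen is a heterotrimer, and the genes of its most widespread chains lie head to head and share a promoter region.

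That arrangement is shown for Col4a1 and Col4a2, which are both members and had nearly parallel levels over the 6 tumours. The windows run from 250 bases before to 50 bases after each start site, from RefSeq on GRCm38.p6, at chr8:11312777-11313076 on the minus strand for Col4a1 and chr8:11312555-11312854 on the plus strand for Col4a2. Each is printed 5′ to 3′, and the capitals mark the 78 bases that both windows hold, as reverse complements of each other.
Col4a1: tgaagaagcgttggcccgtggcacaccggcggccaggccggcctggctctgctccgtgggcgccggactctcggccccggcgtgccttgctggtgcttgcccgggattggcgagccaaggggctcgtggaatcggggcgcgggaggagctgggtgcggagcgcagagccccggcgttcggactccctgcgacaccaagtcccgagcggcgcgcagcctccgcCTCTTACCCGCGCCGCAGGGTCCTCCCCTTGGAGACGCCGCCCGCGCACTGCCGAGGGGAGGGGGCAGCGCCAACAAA
Col4a2: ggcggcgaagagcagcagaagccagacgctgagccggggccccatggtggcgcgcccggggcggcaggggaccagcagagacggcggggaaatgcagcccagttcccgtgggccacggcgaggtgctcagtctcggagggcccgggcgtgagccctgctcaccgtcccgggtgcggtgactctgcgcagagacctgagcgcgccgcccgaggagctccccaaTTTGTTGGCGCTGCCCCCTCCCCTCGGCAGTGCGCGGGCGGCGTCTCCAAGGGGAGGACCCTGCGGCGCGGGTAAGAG
Their GC contents were 74.0% and 73.7%, and neither window held TATAAA. The GC box GGGCGG, read on both strands, occurred in 59.3% of the 27 higher-side members with a RefSeq window and in 68.6% of the 7626 windows of genes over the floor. The ETS core AGGAAG occurred in 29.6% and 32.4%.

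Total expected counts per library were between 16408622 and 19142185, and no pair of libraries agreed within sampling noise. The labels name no batch. Sqle, the targeted gene, was at 163, 145 and 146 CPM in shControl 1, 4 and 5 and at 65.3, 69.9 and 74.4 CPM in shSQLE 1, 2 and 5. The groups did not overlap, so Sqle followed the shRNA label in each library, shSQLE 2 included. Its log2 fold change was -1.05 (SE 0.17, unadjusted p = 0.0001735), and after adjustment over all genes edgeR's quasi-likelihood test gave 0.9996. DESeq2 gave an adjusted p of 8.15e-05.

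Turned to the label, the same floor and ratio picked 10 genes, 0.105% of those over the floor, of which 6 (0.063%) were lower in shSQLE and 4 (0.042%) higher. The lower genes were Sqle, Oas2 and Rtp4 (interferon-induced genes), Fxyd1 (a regulator of the sodium pump), Itpr3 (a calcium channel of the endoplasmic reticulum) and Sphk1 (a sphingosine kinase). The higher genes were Ccdc40, Hs3st1 and the predicted genes Gm28037 and Gm45234. These last 2 had counts in shSQLE 2 alone, at 124 and 58.6 CPM, so they met both rules only because ties at 0 pass, and they are counted among the 45 as well. Without any minimum ratio, 1628 genes (17.1%) had all of set A above all of set B and 904 (9.48%) had it below. Along the label, 329 (3.45%) were lower in shSQLE without overlap and 143 (1.5%) higher.

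Vessel genes, a group drawn up after the values were seen, made up 9 of the 45 higher-side members, with a lowest-to-highest ratio between the sets of 1.56 to 2.07. Of the 9, 5 are on the list of endothelial markers used below. Notch3 is on that of pericytes and smooth muscle, Ednrb on that of the melanocyte lineage, and Adgrf5 and Ece1 are on none. Cdh5, the VE-cadherin of endothelial junctions, was at 35.9, 18.3 and 23.2 CPM in shControl 1, shControl 5 and shSQLE 2. In shControl 4, shSQLE 1 and shSQLE 5 it was at 5.46, 6.63 and 9.05 CPM. The sets did not overlap, and shSQLE 2 was above shControl 5, while shControl 4 was the lowest of the 6. Grouped by the shRNA label, the same levels averaged 19.9 ± 15.3 CPM for shControl (SD, n = 3) and 12.9 ± 8.93 CPM for shSQLE (SD, n = 3). There the groups overlapped, which follows from the rule that chose the gene.

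Notch3, a receptor of mural cells, was at 14.6, 4.52 and 4.57 CPM in shControl 1, shControl 5 and shSQLE 2, against 1.42, 1.88 and 2.18 CPM in shControl 4, shSQLE 1 and shSQLE 5. Its level in shControl 1 stood well above those of the other set A tumours, which were nearly equal. Adgrf5, an adhesion G-protein-coupled receptor made by endothelium, was at 19.6, 6.83 and 8.87 CPM against 3.18, 3.19 and 3.62 CPM in the same order of libraries. Plvap, which forms the diaphragms of endothelial fenestrae, was at 54.1, 45.6 and 44.8 CPM against 26.4, 20.8 and 24.5 CPM. Both kept the sets apart, and Plvap was much more even within set A than Adgrf5.

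Pecam1, the platelet and endothelial adhesion molecule, was at 31.9, 19.1 and 19.5 CPM in set A (in the order shControl 1, shControl 5, shSQLE 2, used from here on) and at 10.1, 6.95 and 11.7 CPM in set B (in the order shControl 4, shSQLE 1, shSQLE 5). Emcn, the endothelial sialomucin endomucin, was at 12.2, 8.12 and 8.18 CPM against 4.49, 3.97 and 4.9 CPM. Sox18, a transcription factor of endothelium, was at 12.7, 11.2 and 10.8 CPM against 6.93, 4.65 and 6.01 CPM. In each of these, shControl 1 was highest and the other set A tumours lay close together. Ece1, the enzyme that releases active endothelin, had a ratio of 1.57 between the sets. Ednrb, an endothelin receptor used by endothelium and by the melanocyte lineage, was at 11.3, 3.66 and 3.35 CPM against 1.7, 1.78 and 2.02 CPM, so most of its span lay between shControl 1 and the rest.

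**Figure D1:**
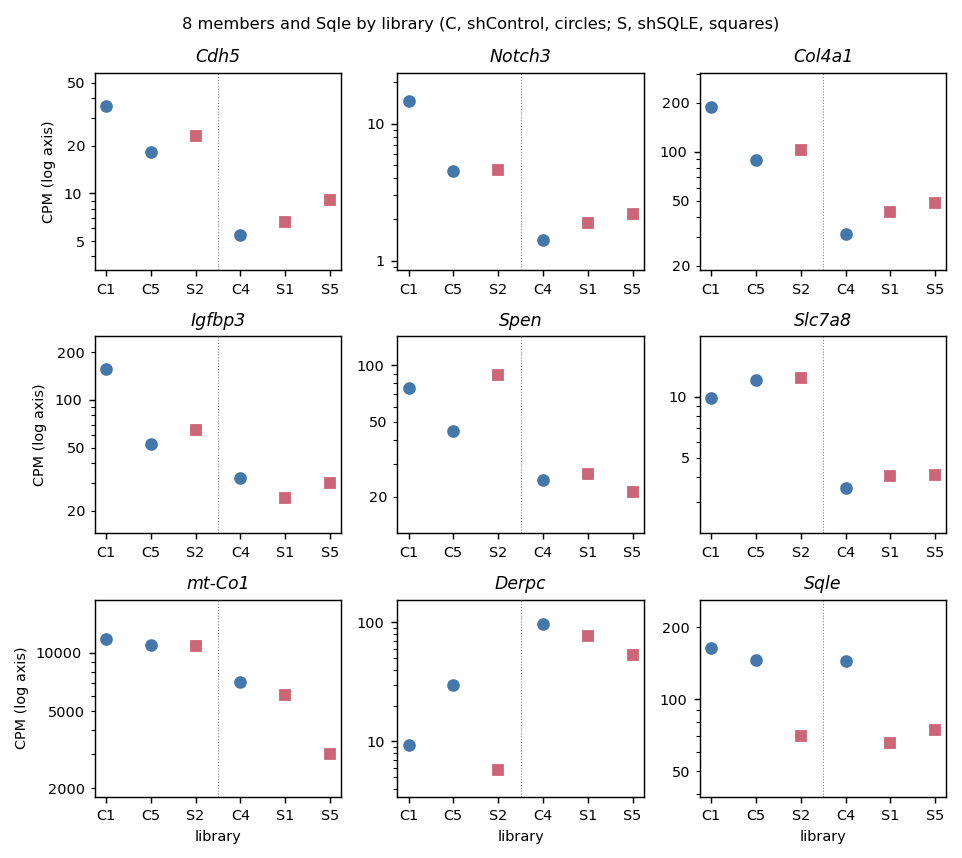
CPM (log axis) of 8 members and Sqle in each of the 6 libraries, 1 point per library (C and circles, shControl; S and squares, shSQLE), with set A left and set B right of the dotted line. Sqle separates shControl from shSQLE, while each of the 8 members separates shControl 1, shControl 5 and shSQLE 2 from the rest.

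Of 22 endothelial markers, 15 were over the floor and 5 of them were members (33.3%, beside 0.472% of all genes over the floor). Set A was wholly above set B in 7 (46.7%, beside 17.1% of all genes) and wholly below in 0. The list's median length was 3087 bases, and 27.8% of all genes of 3000 to 4000 bases had set A wholly above. A list of angiogenesis and vessel signalling genes had 0 members of 17 over the floor and 7 with set A wholly above (41.2%). Its median length was 2920 bases, and the share among all genes of 2000 to 3000 bases was 13.9%. Kdr, a receptor of vascular endothelial growth factor, and Robo4, a guidance receptor of endothelium, kept the sets apart at ratios of 1.35 and 1.37 and are not members. Eng, Egfl7, Vwf, Icam2, Cldn5, Esam, Flt1 and Tie1 overlapped between the sets. Cldn5, a tight junction protein, was at 1.33 CPM in shSQLE 2, the lowest of the 6 libraries, against 2.9 to 3.51 CPM in set B. Over the whole list the summed level was 621, 639 and 700 CPM in set A and 360, 398 and 419 CPM in set B, and Eng supplied 231 to 495 CPM of each sum. In bulk tumours, fewer cells of a type and less RNA per cell cannot be told apart.

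Markers of other host cells divided the tumours less or otherwise. Among pericyte and smooth muscle markers, 3 of 7 over the floor kept set A above set B (Notch3, Pdgfrb and Rgs5), or 42.9% beside 17.1% of all genes. But their summed level was highest in shSQLE 5, at 377 CPM, where Des, the intermediate filament of muscle, was at 179 CPM. Skeletal muscle markers summed to 1811 CPM in shSQLE 5 and to 57.4 to 254 CPM elsewhere, and erythrocyte and platelet markers to 26598 CPM in shSQLE 1 and to 2820 to 7432 CPM elsewhere. Those set B tumours thus stood apart in other host tissue, and its part in the division was not tested. Of 11 fibroblast markers over the floor, 1 kept set A above (9.09%, beside 17.1% of all genes) and 0 were members. For macrophages the figures were 0 of 11 and 0, and the sum was 3191 CPM in shControl 5 against 1518 to 1751 CPM in the other 5 libraries. T and NK cell markers summed to 35.9 CPM in shControl 5 and to 7.68 to 12.8 CPM elsewhere. The melanocyte-lineage sum was 21827, 21208 and 28009 CPM in set A and 16717, 20913 and 20849 CPM in set B. Of its 21 genes 19 were over the floor, 2 of them with set A wholly above (10.5%, beside 17.1% of all genes). The list held 1 member (Ednrb, described with the vessel genes). That lineage matches the label of the cell line.

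Genes of the extracellular matrix and secreted proteins gave 6 members, led by the type IV collagen chains. Col4a1 was at 189, 88.4 and 102 CPM in set A and at 31.4, 42.9 and 48.7 CPM in set B. Col4a2 was at 171, 83.4 and 87.2 CPM against 32.2, 40.2 and 43.1 CPM. The pair that shares the promoter printed above thus had the same order of the 6 tumours, from shControl 1 down to shControl 4.

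Col15a1, a collagen of basement membrane zones, was at 32.2, 24.1 and 27.6 CPM against 7.05, 7.16 and 12.9 CPM. Col6a3, a chain of microfibrillar collagen, was at 46, 19.4 and 22.1 CPM against 5.91, 3.87 and 12.5 CPM. In both, shSQLE 5 was the highest tumour of set B. Of 16 collagen genes over the floor, 4 were members (25%, beside 0.472% of all genes over the floor) and 8 kept set A wholly above set B (50%), with 0 below. The list's median length was 5263 bases, and 41.5% of all genes of at least 5000 bases had set A wholly above. A wider list of matrix and basement membrane genes had 0 members of 23 over the floor and 6 with set A wholly above (26.1%). Its median length was 4032 bases, and 34.2% of all genes of 4000 to 5000 bases had set A wholly above. Col1a1, a fibrillar collagen, was at 274, 171 and 147 CPM against 52.7, 21.3 and 157 CPM, so shSQLE 5 lay within set A's range. Col5a1, another fibrillar collagen, kept the sets apart at a ratio of 1.11.

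Igfbp3, a secreted binding protein of insulin-like growth factors, was at 157, 52.6 and 64.8 CPM against 32.1, 24.1 and 29.9 CPM. Mmp12, the macrophage elastase, was at 16.2, 18.3 and 7.86 CPM against 2.84, 3.19 and 5.11 CPM. The sets stayed apart for both, but the gap for Mmp12 rested on shSQLE 2 and shSQLE 5, which were close.

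Regulators of transcription and chromatin gave 8 members, with ratios of 1.5 to 1.99. Spen, a large nuclear corepressor that binds RNA, was at 75.9, 44.8 and 88.6 CPM in set A and at 24.6, 26.5 and 21.3 CPM in set B. Tnrc18, a large nuclear protein, was at 28.6, 18.2 and 25.1 CPM against 8.75, 9.04 and 9.15 CPM. The set B tumours were nearly level for both, and within set A shControl 5 was the lowest.

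Bcl9l, a coactivator of beta-catenin, was at 44.3, 38.7 and 49.9 CPM against 24.4, 21.2 and 18.3 CPM. Ash1l, a histone methyltransferase, was at 42.1, 17.5 and 25.8 CPM against 11.3, 11.4 and 11.2 CPM. Kat6b, a histone acetyltransferase, was at 12.8, 7.53 and 11.7 CPM against 4.26, 5.02 and 4.26 CPM. These are drawn from across the range of the group, since Bcl9l differed little within set A and Ash1l differed more than 2-fold. Zmiz1 (a transcriptional coactivator) and Bcorl1 (a corepressor) had ratios of 1.57 and 1.54.

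A list of 24 corepressors and coactivators over the floor, drawn up after the members were seen, held 4 members and 21 genes with set A wholly above set B, or 87.5% beside 17.1% of all genes. A like list of 30 histone lysine methyl- and acetyltransferases held 2 members and 16 such genes (53.3%). Neither list had a gene with set A wholly below. Since both were chosen for this pattern, the counts are a description of which functions the members belong to. The lists' median lengths were 4579 and 5164 bases. Set A was wholly above in 34.2% of all genes of 4000 to 5000 bases and in 41.5% of those of at least 5000.

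The mitochondrial genome gave 3 members. mt-Co1, which encodes a core subunit of cytochrome c oxidase, was at 11760, 11014 and 10887 CPM in set A and at 7066, 6041 and 3019 CPM in set B. mt-Nd5, a subunit of complex I, was at 1082, 1121 and 1436 CPM against 530, 670 and 304 CPM. shSQLE 5 was the lowest of the 6 tumours in both, while set A was nearly level for mt-Co1. mt-Nd6, another complex I subunit encoded on the opposite strand and overlapping the end of mt-Nd5, had a ratio of 1.66, and the sources used here do not say whether counting used strand.

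Of 15 mitochondrially encoded genes, 11 were over the floor and 3 were members (27.3%, beside 0.472% of all genes). Set A was wholly above set B in 7 (63.6%, beside 17.1% of all genes). The summed level was 27623, 29796 and 31871 CPM against 20532, 17876 and 9445 CPM. The other 4 overlapped: in mt-Nd1 and mt-Nd4 shControl 4 was slightly above shControl 1, in mt-Rnr1 it was above shSQLE 2, and mt-Nd3 was highest in shControl 4, at 86.8 CPM against 56.9, 45.8 and 41 CPM in set A. The genes mt-Co2, mt-Co3, mt-Atp6 and mt-Atp8 are listed at or near 0 in every library. Nuclear genes of oxidative phosphorylation lay on the other side: 0 of 40 were members, and 24 had set A wholly below set B (beside 9.48% of all genes, and 34.7% of genes under 1000 bases, where the list's median of 818 bases lies), with sums of 12782, 15250 and 13218 CPM against 18472, 17036 and 19035 CPM.

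Membrane, traffic and signalling genes gave 12 members. Slc7a8, the light chain of a transporter of neutral amino acids, had the widest gap of all members with a finite ratio, 2.41, at 9.87, 12.1 and 12.4 CPM in set A against 3.52, 4.07 and 4.1 CPM in set B. Both sets were tight, and shSQLE 2 was level with shControl 5. Fat1, an atypical cadherin, was at 88.6, 57.9 and 85.7 CPM against 33.1, 34.5 and 25.9 CPM.

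Ehd2, an ATPase at the neck of caveolae, was at 27.7, 24.8 and 22.5 CPM against 13.1, 8.41 and 12.9 CPM. Tmem131, a transmembrane protein, was at 99.5, 95.4 and 151 CPM against 51.8, 61.1 and 41.2 CPM. Atp7a, the copper exporter, was at 35, 12.8 and 14.3 CPM against 4.89, 8.25 and 6.07 CPM. The source of the spread differed, since shSQLE 2 led for Tmem131 and shControl 1 for Atp7a. The other 7 were Abhd2 (a hydrolase), Ttc28, Arhgef17, Stom (stomatin), Dab2 (a clathrin adaptor), Akap12 (a scaffold for protein kinase A) and Fyco1 (an adaptor that moves autophagosomes), with ratios of 1.54 to 1.69.

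**Figure D2:**
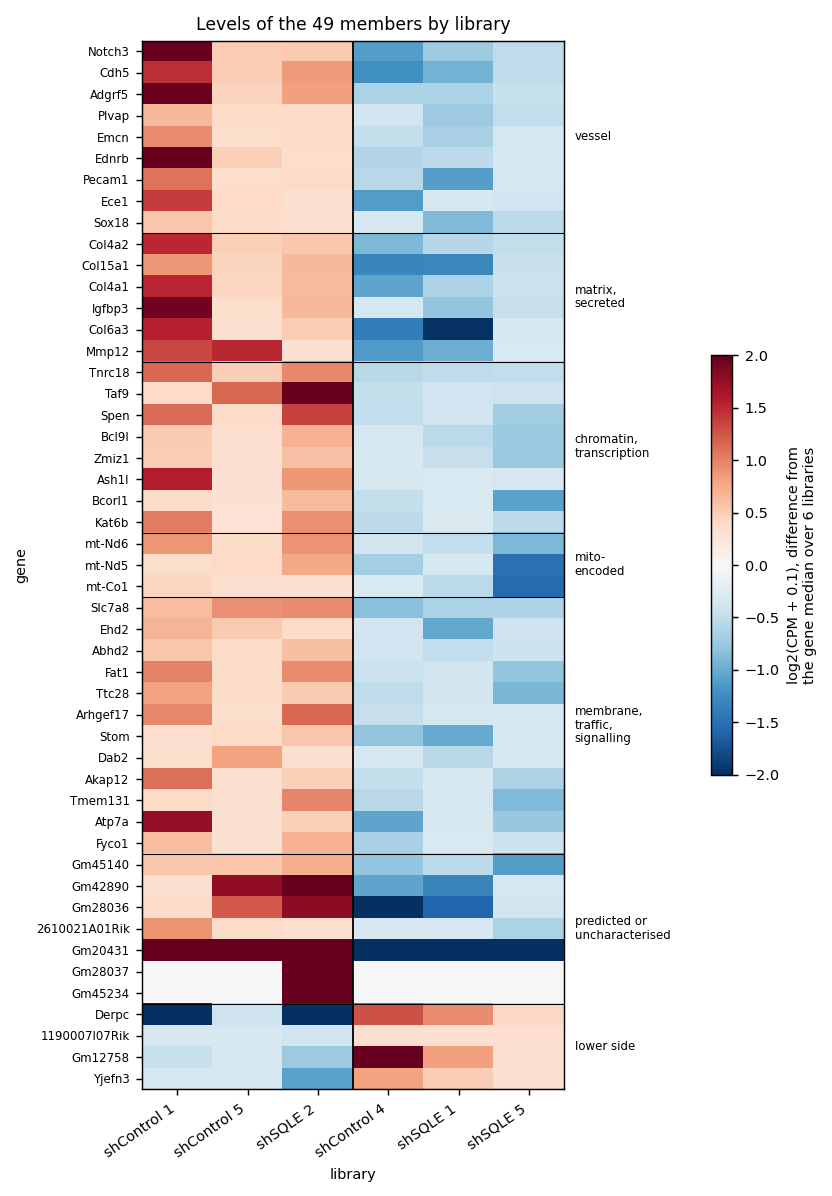
Level of the 49 members in the 6 libraries as log2(CPM + 0.1) relative to each gene's median over the libraries, with colours cut at 2 in either direction, genes grouped by role and libraries ordered as set A then set B. The higher-side genes share the division between the sets, apart from Gm28037 and Gm45234, which had counts in shSQLE 2 alone, and differ in which library of set A is highest.

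The ratio did not use the order within each set, which is given by role, with no test, but the floor used it in part. The vessel genes Adgrf5, Ece1, Ednrb, Emcn and Notch3 reached 10 CPM in shControl 1 alone. For these genes the floor fixed in advance that shControl 1 was highest. In all 9 vessel genes and in 5 of 6 matrix and secreted genes shControl 1 was the highest tumour, beside 48.7% of all genes over the floor for which it was the highest of set A. In 5 of 8 chromatin and transcription genes shSQLE 2 was highest, beside 30.6% of all genes. At the other end, the lowest tumour was shControl 4 or shSQLE 1 for each of the 9 vessel and 6 matrix genes, and shSQLE 5 for 6 of 8 chromatin genes and all 3 mitochondrial genes. Over all genes the lowest tumour of set B was shControl 4 in 27.2%, shSQLE 1 in 36.2% and shSQLE 5 in 36.6%. shSQLE 2 was above both shControl tumours of set A for 19 of the 45 genes (42.2%, beside 30.6% of all genes) and below both for 9 ( beside 28.7%).

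The lower side held 4 genes. Derpc was at 9.3, 29.8 and 5.75 CPM in set A and at 96.5, 76.7 and 52.9 CPM in set B. Yjefn3 was at 5.91, 5.92 and 3.45 CPM against 13, 10.4 and 9.21 CPM. 1190007I07Rik was nearly level within each set, at 11.4, 11.4 and 10.8 CPM against 17.8, 18 and 18.1 CPM. Gm12758 had a ratio of 1.57. In each of the 4 genes shSQLE 2 was the lowest tumour, and the highest was shControl 4 for 3 of them.

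Some members share exons with neighbours, and how reads were divided between such genes was not tested. In the GENCODE M21 annotation, 8 members overlapped other genes on the same strand over at least 40% of their exon bases, and 7 of these are on the higher side. Derpc lies wholly within exons of Chtf8 (a subunit of a clamp loader in replication), which was at 151, 126 and 163 CPM in set A and at 67.2, 80.5 and 106 CPM in set B. The sum of both genes was 161, 156 and 169 CPM against 164, 157 and 159 CPM, so the sets overlapped in the sum. Taf9, a subunit of the general transcription factor TFIID, was at 10.1, 17.1 and 31.3 CPM against 5.51, 5.82 and 5.72 CPM, but shares 73.8% of its exon bases with Ak6, which was at 93.9 to 112 CPM in the 6 libraries.

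Gm20431 was at 12, 22.9 and 77.7 CPM in set A and is listed at 0 in set B, with 70.7% of its exon bases in Ube2v1. Its other annotated partner, Tmem189, was not found under that name among the deposited counts, so the sum for this locus adds Ube2v1 alone. Gm28036, Gm42890 and Gm45140 and the genes Gm28037 and Gm45234 named above are the other members of this kind. For 0 of these 8 loci did the sum of the member and its partners reach the 1.5-fold ratio, and the 7 higher-side sums had ratios of 0.666 to 1.02, but the partners were mostly far more abundant by CPM and weigh most in the sums. Ube2v1 was at 207, 309 and 281 CPM in set A and at 279, 262 and 235 CPM in set B, which does not mirror Gm20431. That left 41 members with no such partner, 38 of them on the higher side.

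Transcript length moved with the division. By the lengths in the deposited table, the 45 higher-side members had a median of 4570 bases (519 to 12874), and 26 of them were at least 4000 bases long, beside 20.6% of all genes over the floor, whose median was 2436 bases. The 4 lower-side members had a median of 972 bases. The chromatin and transcription members had a median of 6796 bases and the vessel members 3850.

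The same held for genes at large. The share with set A wholly above set B was 1.21% among genes under 1000 bases and 41.5% among those of at least 5000 bases, while the share wholly below was 34.7% and 0.293%. Along the label, the share without overlap in either direction was between 2.43% and 6.08% in each length class. With the members left out, the median log2 difference of genes of at least 5000 bases from their own medians over the libraries was 0.76 in shControl 1, 0.33 in shSQLE 2, 0.00 in shControl 5 and between -0.18 and -0.10 in set B. The shift was thus largest in shControl 1 and near 0 in shControl 5, although both belong to set A. Genes of at least 5000 bases held 5.89%, 3.75% and 4.83% of the counts in set A and 3.35%, 3.46% and 3.32% in set B. Ribosomal protein genes, with a median of 768 bases, had 29 of 49 wholly below in set A and 0 above.

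**Figure D3:**
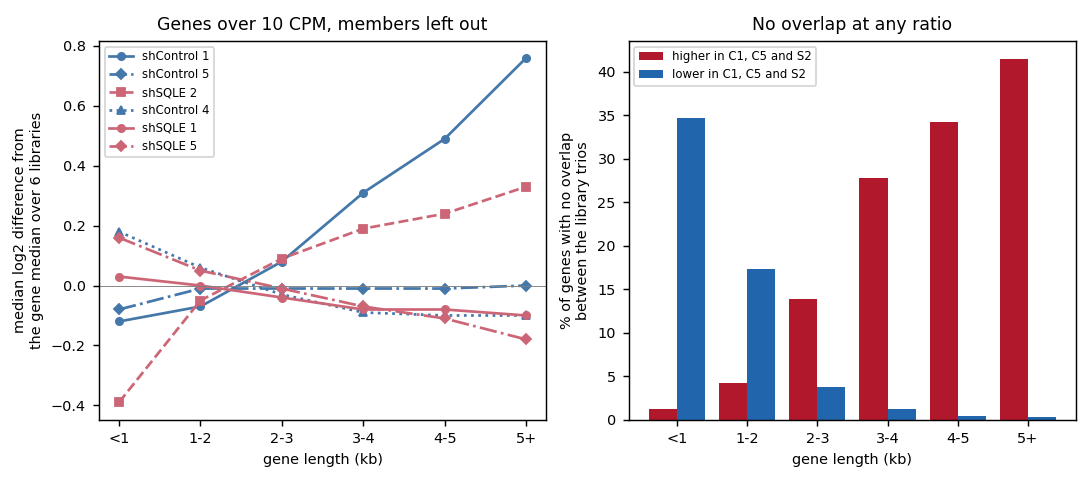
Genes over the floor by length class in kb. Left, lines give each library's median log2 difference from the gene medians over the 6 libraries, members left out (circles replicate 1, squares 2, triangles 4, diamonds 5; blue shControl, red shSQLE). Right, bars give the percentage of genes with set A wholly above set B (red, 1.21% to 41.5%) or wholly below (blue, 34.7% to 0.293%).

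When each library's log2 CPM was centred within 20 length bins, an alternative chosen after the data were seen, 23 genes met the rule on the higher side, 20 of them members. The role groups were kept unequally. Of the vessel members 5 of 9 still met the rule (Cdh5, Adgrf5, Emcn, Plvap and Sox18), of matrix and secreted members 4 of 6 (Col4a1, Col15a1, Igfbp3 and Mmp12), and of mitochondrial members 3 of 3. Of chromatin and transcription members 1 of 8 did (Taf9, which shares its exons), and of membrane and traffic members 2 of 12 (Slc7a8 and Stom). Without a minimum ratio, set A was then above in 7 of 15 endothelial, 7 of 16 collagen and 10 of 11 mitochondrially encoded genes and in 13 of 24 corepressors and coactivators, beside 8.03% of all genes. The corepressor and coactivator list was drawn up after the members were seen, so its count is a description. Set A was wholly below in 14 of 40 nuclear oxidative phosphorylation genes and in 11 of 49 ribosomal protein genes, beside 9.43% of all genes.

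The number of members on each side also depended on the scaling. With TMM factors, which ranged from 0.928 to 1.12, the rule gave 28 genes on the higher side and 28 on the lower side, and all genes shifted by between -0.16 (shControl 1) and 0.11 (shSQLE 1) on the log2 scale. Of the original members 28 of 45 and 4 of 4 met it. Without a minimum ratio the division turned from 17.1% higher and 9.48% lower to 9.67% and 17.4%. The endothelial list stayed at 7 genes above and 0 below, collagens at 8 and 0 and nuclear oxidative phosphorylation genes at 0 and 29. Adgrf5, Cdh5, Emcn, Plvap, Col4a1, Col15a1, Igfbp3, Slc7a8 and mt-Nd6 met the rule under TMM, DESeq2 size factors and length centring and do not share 40% of their exon bases with a gene on the same strand. Of these, mt-Nd6 overlaps mt-Nd5 over 2.7% and Col4a1 overlaps Col4a2 over 0.295% of its exon bases on the opposite strand.

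**Figure D4:**
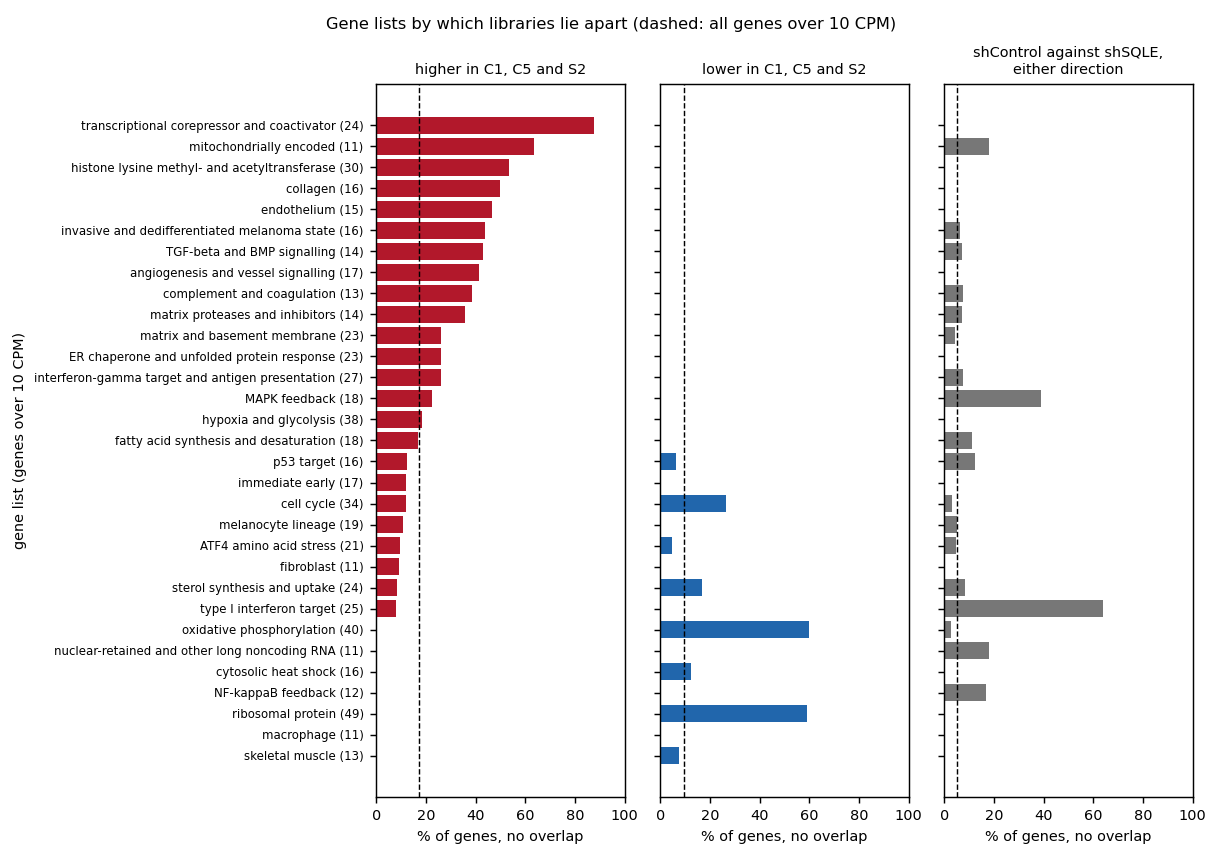
For each gene list with at least 10 genes over the floor (number in parentheses), bars give the percentage with set A wholly above set B (left panel), wholly below (middle) and with no overlap along the shRNA label in either direction (right), and dashed lines give the same over all genes. Corepressor, mitochondrially encoded, histone methyl- and acetyltransferase, collagen and endothelial lists lead on the left, ribosomal protein and nuclear oxidative phosphorylation genes in the middle, and type I interferon targets on the right. The corepressor and the histone methyl- and acetyltransferase lists were drawn up after the members were seen.

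Type I interferon targets followed the label instead of this division. Of 25 type I interferon targets over the floor, 16 were lower in each shSQLE library than in any shControl library, beside 3.45% of all genes. Set A was wholly above set B in 2 (8%, beside 17.1% of all genes), and 0 were members. Their sums were 419, 429 and 1398 CPM in shControl 1, 4 and 5 and 227, 302 and 355 CPM in shSQLE 1, 2 and 5. Of 27 interferon-gamma target and antigen presentation genes over the floor, 2 were lower in shSQLE without overlap and 0 were members. Set A was wholly above set B in 7 of the 27 (25.9%, beside 17.1% of all genes), and in 3 with TMM factors (beside 9.67%). MAPK feedback genes gave 6 lower in shSQLE and 1 higher of 18, beside 3.45% and 1.5% of all genes. Set A was wholly above in 4 of them (22.2%), near the 17.1% of all genes. The genes of sterol synthesis and uptake followed neither as a group: of 24, 1 was lower and 1 higher in shSQLE without overlap. Set A was above in 2 (8.33%, beside 17.1% of all genes) and below in 4, beside 9.48% of all genes. None of the lists described had a gene past the threshold when the label was tested with edgeR.

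For the label itself, edgeR's quasi-likelihood test over 13268 genes called 0 genes at an adjusted p of 0.05 (0%), with 413 (3.11%) at an unadjusted p under 0.05, while DESeq2 called 8 and limma voom 0. Of the 49 members 46 were tested, 0 passed and 0 had an unadjusted p under 0.05. Their median log2 fold change was -0.37, with 40 of 46 lower in shSQLE, beside -0.02 and 52.6% of all genes tested. Since 4 of 6 libraries fall on the same side of the label and of the division, the choice of members partly fixes that direction.

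The smallest p-values among members in edgeR's test were those of Mmp12, Ednrb and Igfbp3. Mmp12 had a log2 fold change of -1.15 (SE 0.59, unadjusted p = 0.0829), Ednrb of -1.11 (SE 0.59, unadjusted p = 0.0933) and Igfbp3 of -0.93 (SE 0.55, unadjusted p = 0.126), each with an adjusted p of 0.9996. Ednrb and Igfbp3 rested on shControl 1, without which their values were -0.19 and -0.13, and Mmp12 came to -0.69 without shControl 5. Of the role groups, matrix and secreted members had a median of -0.74 and vessel members of -0.56, while chromatin and transcription members had -0.19.

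Near the threshold, Kat6b, Ash1l and Mmp12 were the last members on the higher side, at ratios of 1.5, 1.54 and 1.54. Just outside were Srcap (a chromatin remodeller) at a ratio that rounds to 1.5, Ccdc80 at 1.49 and Srrm2 (a splicing cofactor) at 1.49. On the lower side the nearest outside were Atox1 (a copper chaperone) at 1.48, Ccdc51 at 1.45 and Mrps24 (a mitochondrial ribosomal protein) at 1.44. The rule thus parts genes of like behaviour, and Srrm2, at 292, 247 and 360 CPM against 137, 165 and 119 CPM, had a division as plain as that of many members.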

How the data were processed

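The authors deposited 1 table of expected counts for 55349 genes in 6 libraries, with gene lengths in bases. The tools named in the submitters' processing notes are FastQC, STAR, RSEM and DESeq2, with the build GRCm39 and no versions. Per the labels' protocols, total RNA was sequenced from both ends with DNBSEQ-T7. Expected counts share out a read among the transcripts it could come from: 35 of the 49 members had whole values in each library, to within 0.005, and the rest did not.

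CPM is a deposited expected count over its column total, times 1000000, and was computed with pandas 2.3.3. Members needed 10 CPM in at least 1 library and a ratio of 1.5. The members and the 45 gene lists were chosen with earlier results of these data known, and 2 lists and the role groups after values were seen. The label was tested with edgeR 4.0.16 (glmQLFit with robust=TRUE, glmQLFTest, R 4.3.3) on rounded expected counts, with filterByExpr (minimum count 10, minimum total 15), TMM and Benjamini-Hochberg adjustment over all genes tested at 0.05. DESeq2 1.42.0 and limma 3.58.1 (voom) were alternatives. The test and the rule were checked on simulated data.

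Genes named are Sqle, the 12 members with the widest gap and the 5 with the highest median CPM on each side, up to 5 from each list with at least 3 members, the 3 with the smallest label p, and the 3 nearest inside and outside the threshold. Others were named after their values were seen, namely the remaining vessel, matrix, nuclear and membrane members, the genes by the same rule along the label, the list genes that are no members, and exon partners. Overlapping exons were counted in GENCODE M21, which is on another build, so no coordinates come from it.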

Additional observations from a re-analysis of the deposited data

How the results depend on the processing

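The number of members moved with the scaling and the thresholds. On the higher side, set against 45, it was 28 with TMM-normalised CPM, 26 with CPM by DESeq2 size factors, 23 with length-centred CPM, 225 at a ratio of 5 to 4 and 7 at a ratio of 2. On the lower side, set against 4, it was 28 with TMM, 28 with DESeq2 size factors, 1 with a floor of 20 CPM, 83 at 5 to 4 and 0 at 2. Along the label, the 6 genes lower in shSQLE became 3 with TMM, 2 with DESeq2 size factors, 3 with the floor of 20 CPM, 25 at 5 to 4 and 0 at 2. The 4 genes higher in shSQLE became 7 at 5 to 4 and 2 when counts above 0 were required.

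Leaving out a library in turn loosens the ratio rule, since fewer libraries must be apart. It also tightens the floor, since 10 CPM must be reached in 1 of the libraries left. The higher side then held 56 (without shControl 4) to 387 genes (without shControl 5), with 197 without shSQLE 5, 95 without shSQLE 1 and 88 without shSQLE 2. The lower side held 3 (without shControl 4) to 86 genes (without shControl 1), with 42 without shSQLE 1, 19 without shControl 5 and 11 without shSQLE 2. Along the label, 6 (without shControl 5) to 90 genes (without shSQLE 1) were lower in shSQLE and 2 (without shSQLE 2) to 96 (without shSQLE 1) were higher. Without shControl 1, 40 of the 45 higher-side members still met the rule. Those lost were the vessel genes Adgrf5, Ece1, Ednrb, Emcn and Notch3, which reached 10 CPM in shControl 1 alone. Without shSQLE 2, 42 of the 45 were kept, and without any other library all 45.

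Of the lists, endothelial members numbered 3 with the floor of 20 CPM, 1 at a ratio of 2, and 5 to 9 with a library left out. Collagen members numbered 0 at a ratio of 2, 2 with length centring, and 4 to 12 with a library left out. Mitochondrially encoded members numbered 1 with TMM, 1 with DESeq2 size factors and 0 at a ratio of 2. With length centring, the log2 of the ratio between the nearest libraries of the sets turned to -0.14 for Zmiz1, -0.03 for Fyco1, -0.26 for Tmem131 and -0.09 for Abhd2, which for a gene of the higher side means that the sets overlapped. Under TMM, DESeq2 size factors and length centring the sets of the other named members did not come to overlap. On the lower side, where the ratio is below 0 when the sets are apart, that of 1190007I07Rik came to -0.08 under length centring against -0.65.

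For the label test, DESeq2 called 8 genes and edgeR's quasi-likelihood test called 31 without shSQLE 1 and 0 without any other library. With the replicate number as a block it called 41 genes, of which 1 was a member, Gm20431 (log2 fold change -11.28, adjusted p = 3.06e-07), listed at 0 in 3 libraries and sharing its exons with Ube2v1. The groups share the numbers 1 and 5 only, and the deviations of same-numbered libraries correlated at -0.13 and 0.07. With so few shared numbers this cannot decide whether same-numbered libraries were paired, and the labels do not say what the numbers mean. Mmp12 came to -1.94 under the block (adjusted p = 0.054 in edgeR). The cause of these shifts was not tested.

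Depth limits the low levels in set B: the lowest level of Notch3 there rests on 25 counts and that of Cdh5 on 96.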
